A study of Oryza sativa Japonica Group with 30 samples.

Results

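The 8 genes described here encode enzymes of the carbon routes that a poorly aerated cereal endosperm uses. They were chosen by locus identifier and not by a cut on measured values, but with earlier results of these data known. All 8 were found among the 55801 gene identifiers of the deposited profile. They are the alcohol dehydrogenases ADH1 (LOC_Os11g10480) and ADH2 (LOC_Os11g10510), the pyruvate decarboxylases PDC1 (LOC_Os05g39310) and PDC2 (LOC_Os03g18220), the pyruvate orthophosphate dikinases PPDKB (LOC_Os05g33570, also called FLO4) and PPDK2 (LOC_Os03g31750), the alanine aminotransferase AlaAT1 (LOC_Os10g25130) and PFP1 (LOC_Os06g13810), the beta subunit of pyrophosphate-dependent phosphofructokinase (PFP). The identifiers come without names in the deposited tables. For 6 of the 8, a gene with the same symbol lay on the same chromosome of the RefSeq rice assembly, at most 0.0322 of the chromosome away from the relative place of the locus. AlaAT1 and PFP1 had no such symbol there, so their names rest on the gene list alone. The check on place cannot tell close neighbours apart. Which locus is ADH1 and which is ADH2 therefore rests on that list as well. The same holds for PDC1 and a locus beside it that is listed for the same enzyme.

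RNA came from whole unripe caryopses of rice, collected 7 days after pollination from field-grown plants. The 30 samples fall into 10 groups of 3. Lines overexpressing ONAC127 (OX-ONAC127), lines overexpressing ONAC129 (OX-ONAC129), ONAC127 mutants (CR-ONAC127), ONAC129 mutants (CR-ONAC129) and the wild type ZH11 were each grown under natural heat stress (H) and under normal cultivation (N). Plants under heat stress passed 35 °C for roughly 6 h daily and met maxima of about 40 °C, whereas under normal cultivation 3 days passed that mark and the daytime mean was about 30 °C. The labels name neither the promoter of the overexpression constructs nor the number of independent lines. Nor do they tell if replicates came from different plants.

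The design asks whether these genes differ from ZH11 in each line under each condition, and between heat stress and normal cultivation. Neither was tested here. Each gene has 1 value, the mean over all 30 libraries of counts divided by a library size factor, and the 8 tables named for the comparisons with ZH11 hold this same column. No SD between samples, fold change or p can be given, and the values below carry no information on genotype or heat. They are not divided by transcript length, which the sources used here do not give, so they compare reads drawn by each gene and not numbers of transcripts. A whole caryopsis mixes tissues, so fewer cells of a type and less RNA per cell cannot be told apart. Both the endosperm gene GBSSI, for the starch synthase that makes amylose, and OLE18, for an oil body protein of embryo and aleurone, were read, at 39906 and 21160 normalised counts.

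Oxygen is scarce inside the filling endosperm, and pyruvate from glycolysis can then leave along several routes. In ethanol fermentation, pyruvate decarboxylase turns pyruvate into acetaldehyde and alcohol dehydrogenase reduces that to ethanol, which gives back the NAD+ that glycolysis needs. Alanine aminotransferase stores the carbon of pyruvate as alanine without loss of carbon dioxide. PPDK interconverts pyruvate and phosphoenolpyruvate (PEP) and in doing so makes or uses pyrophosphate. PFP uses pyrophosphate in place of ATP to exchange the sugar phosphates at the entry of glycolysis. In rice, loss of PPDKB gives a floury, opaque endosperm.

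All 8 genes were read, and 6 of them reached 1000 normalised counts, a level that 3.78% of all genes in the profile reached. All but PDC1 reached 100 normalised counts, a level that 21.4% of all genes reached. Their median was 2969 normalised counts, beside 1.23 over all genes and 15.9 over the 40831 genes above 0. Together they held 0.688% of all normalised counts, and PPDKB alone made up 59.8% of their sum. In order of normalised counts the genes ran from PPDKB through PDC2, AlaAT1, PFP1, ADH1, ADH2 and PPDK2 to PDC1, and the first drew 514 times the reads of the last. Neighbours in this order were closest, as a ratio, for PFP1 and ADH1, at 3069 and 2869 normalised counts. Whether neighbours differ beyond the spread between samples was not tested. The genes were picked with earlier results of the data known, so the counts describe them and are no test.

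**Figure D1:**
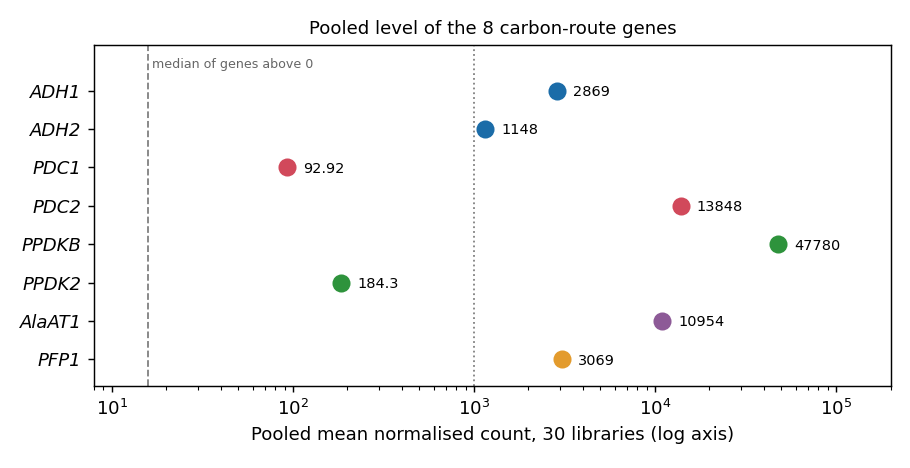
Pooled mean normalised count of each of the 8 genes over 30 libraries, on a log axis, with 1 point per gene coloured by enzyme family; the dashed line is the median of genes above 0 (15.9) and the dotted line is 1000. PDC1 and PPDK2 lie below the dotted line at 92.9 and 184, and the other 6 genes lie above it, up to 47780 for PPDKB.

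PDC2, which makes the acetaldehyde of the fermentation route, had 13848 normalised counts and ranked 80 of all genes. PDC1 encodes the same enzyme and had 92.9 normalised counts, rank 12317. PDC2 thus drew 149 times the reads of PDC1. A pooled mean sets a ceiling here: if every read of PDC1 had come from a single group of 3 samples, that group would have averaged 929 normalised counts, still below the pooled mean of PDC2. The remaining gene of that symbol in the reference, PDC3 (LOC_Os07g49250), had 0.376 normalised counts, which corresponds to 7 to 18 reads over all 30 libraries. One more locus listed as pyruvate decarboxylase stands next to PDC1 on chromosome 5 and had 63.1. Of the reads of the 4 loci, PDC2 held 98.9%. PDC1 and the locus beside it may be close copies, and how reads shared by copies were counted is not given, so their single values are uncertain.

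ADH1, the first of the alcohol dehydrogenases that complete the route to ethanol, had 2869 normalised counts and ranked 684. ADH2 had 1148 and ranked 1865. ADH1 drew 2.50 times the reads of ADH2 and 71.4% of the reads of the pair, so here the reads were divided less unevenly than between PDC2 and PDC1. Both genes lie on chromosome 11 with 2 loci between them, of which LOC_Os11g10490 had 0.406 normalised counts and LOC_Os11g10500 was listed at 0. ADH1 and ADH2 are close relatives, and their split of reads is uncertain for the reason given for PDC1. The sum of the 4 decarboxylase loci was 3.49 times that of ADH1 and ADH2, in normalised counts not divided by length.

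Other exits and side steps of fermentation drew reads to different extents. The 2 loci listed as lactate dehydrogenase, which reduces pyruvate to lactate, had 199 and 0.639 normalised counts, and ADH1 and ADH2 together drew 20.1 times their sum. The 2 loci listed as mitochondrial aldehyde dehydrogenase, which oxidises acetaldehyde to acetate, had 17860 and 1049. FALDH (LOC_Os02g57040), a class III alcohol dehydrogenase that acts on the glutathione adduct of formaldehyde and not mainly on ethanol, had 1589. Of the 7 loci in this list 3 reached 1000 normalised counts, and the list median was 199. Apart from PDC3 and FALDH, the loci of this list had no symbol in the reference, and their roles rest on general knowledge.

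AlaAT1, which exchanges pyruvate and alanine, had 10954 normalised counts and ranked 119. This was 0.791 times the count of PDC2, the most read of the PDC and ADH genes, and AlaAT1 and PDC2 were the only genes of the 8 besides PPDKB above 5000 normalised counts, a level that 0.604% of all genes reached. The 3 other loci listed as alanine aminotransferases had 229, 186 and 66.6 normalised counts, and none reached 1000. AlaAT1 held 95.8% of the reads of the 4. The locus with 186 stands directly after AlaAT1 on chromosome 10, and reads shared by the pair may have been split.

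PPDKB had 47780 normalised counts and ranked 11 of all 55801 genes, with 0.411% of the whole profile. PPDK2 had 184, rank 8695. PPDKB drew 259 times the reads of PPDK2 and 99.6% of the reads of the pair. With all its reads placed in a single group of 3, PPDK2 would have averaged 1843 normalised counts there, so no division of the reads over the groups would bring it to the pooled mean of PPDKB. In plants, the protein PDRP1 (LOC_Os07g34640) switches PPDK off by adding a phosphate and on by removing it. PDRP1 had 67.2 normalised counts, and PPDKB drew 711 times its reads. Whether PDRP1 acts on the product of PPDKB in the caryopsis was not tested.

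Pyruvate kinase, which carries PEP to pyruvate in glycolysis, was listed with 9 loci, of which 4 reached 1000 normalised counts. Their median was 651 and their highest value 2216. PPDKB drew 6.19 times the reads of all 9 together. The listed loci for PEP carboxylase, which feeds PEP into organic acids, numbered 6 and lay between 124 and 958 normalised counts. The 2 loci for PEP carboxykinase, which makes PEP from oxaloacetate, had 2258 and 35.6. With PDRP1, this list of 9 loci had a median of 238, and 1 locus reached 1000. Except for PDRP1 these loci could not be named from the reference. The symbol OsPK occurs there at the places of 2 pyruvate kinase loci, but it is also given to protein kinases and ethylene receptors, so it was not used.

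PFP1, the listed catalytic beta subunit of PFP, had 3069 normalised counts and ranked 625. The regulatory alpha subunit was listed with 4 loci, at 2178, 1603, 272 and 3.72 normalised counts, and PFP1 drew 0.757 times the reads of all 4. Both kinds of subunit were therefore read, the beta subunit from 1 listed locus and the alpha subunit mainly from 2. The 10 loci listed as ATP-dependent phosphofructokinase, which catalyses the forward step alone, summed to 2897 normalised counts, and 1 of them reached 1000. The sum over PFP1 and the alpha loci was 7125, which was 2.46 times that sum. The median over the 14 listed alpha and ATP-dependent loci was 165.

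**Figure D2:**
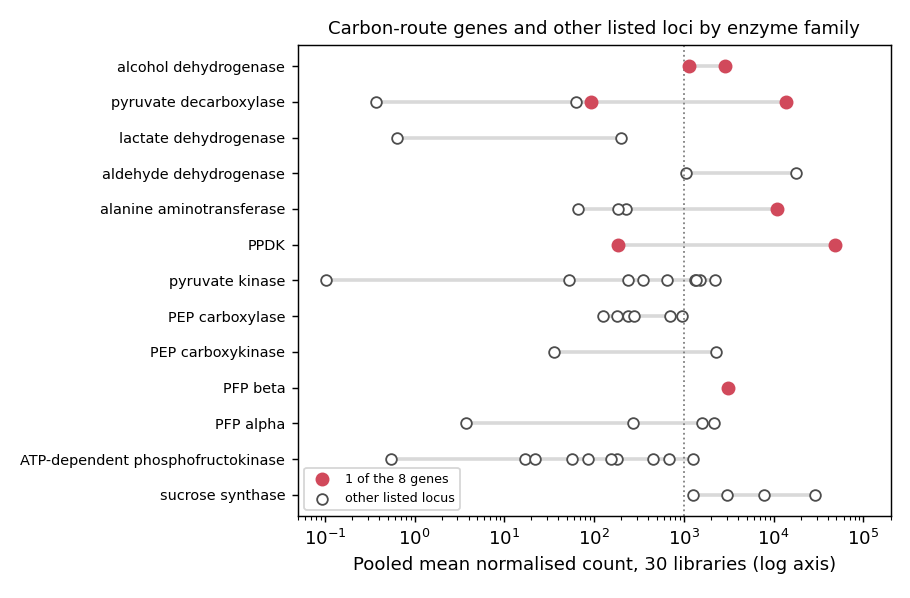
Pooled mean normalised count over 30 libraries, on a log axis, for the 8 genes (filled red) and the other listed loci of related families (open), 1 point per locus and 1 row per enzyme family, with grey bars from the lowest to the highest locus and a dotted line at 1000. PDC2, AlaAT1 and PPDKB stand far to the right of the rest of their families. So do the leading loci of lactate dehydrogenase, aldehyde dehydrogenase and PEP carboxykinase, which are not among the 8 genes. The 9 pyruvate kinase loci and the 10 ATP-dependent phosphofructokinase loci spread without a single distant leader.

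Across the 12 families of metabolic enzymes listed with more than 1 locus, which leave out the kinases, haemoglobins and transcription factors of low-oxygen signalling, a single locus held over 90% of the reads in 6, a mark set after the values were seen. Of these, 3 were led by PPDKB (99.6%), PDC2 (98.9%) and AlaAT1 (95.8%), and the other 3 were the families of lactate dehydrogenase, aldehyde dehydrogenase and PEP carboxykinase. In the alcohol dehydrogenase pair, ADH1 held 71.4%. The leading locus held 28.7% among the pyruvate kinases, 38.7% among the PEP carboxylases, 43.4% among the ATP-dependent phosphofructokinases and 53.7% among the PFP alpha loci. A leading share tends to be lower where more loci are listed, and the lists may not hold every locus of a family. The sucrose synthases, which open sucrose to glycolysis with little use of ATP, numbered 4, and SUS3 held 70.4% of their reads. SUS3 drew 0.601 times the reads of PPDKB.

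Most genes next to each of these 8 on the chromosomes drew fewer reads. Some drew more, such as loci with 217, 235 and 738 normalised counts near PPDK2, which had 184. Among the 10 loci on each side, the median ran from 0.546 normalised counts around PPDK2 to 73.3 around PDC2. PPDKB, PDC2, AlaAT1 and ADH1 drew more reads than each of their 20 neighbours. They ranked 11, 80, 119 and 684 of all genes, so a first place among so few loci adds little to those ranks. The most read neighbour of PPDKB had 628 normalised counts, that of AlaAT1 had 980 and that of PDC2 had 2272, while ADH1 was followed by ADH2. PFP1 took place 2 in its window, after a locus with 3855 normalised counts, and ADH2 place 3. PPDK2 took place 4, with 6 of its neighbours listed at 0, and PDC1 place 5, with loci of 3092 and 2253 normalised counts on either side.

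**Figure D3:**
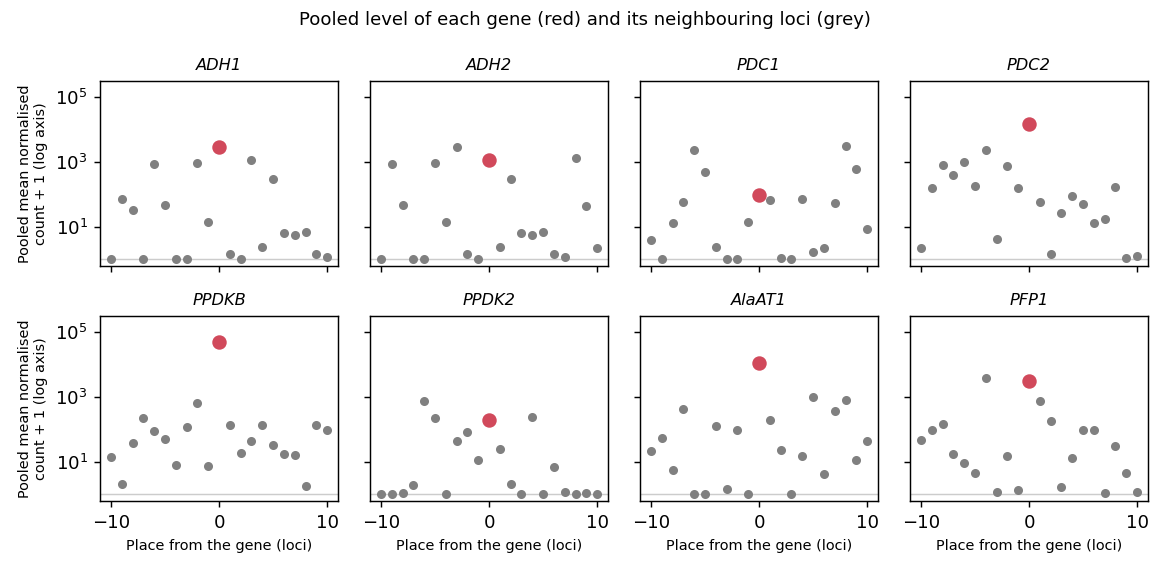
Pooled mean normalised count plus 1 over 30 libraries, on a log axis, for each of the 8 genes (red) and the 10 loci on each side of it (grey), against the place in the order of loci. The red point is the highest of its panel for PPDKB, PDC2, AlaAT1 and ADH1 and is passed by grey points for PFP1, ADH2, PPDK2 and PDC1.

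Counting error was small beside these distances. The lowest values of the profile recur on 30 steps. A step is what a single read adds in one of the libraries, and the steps ran from 0.0203 to 0.0605 normalised counts. This corresponds to size factors (relative depths) from 0.551 to 1.64. PDC1, the least read of the 8, thus rests on 1537 to 4583 reads in all, and its counting error is at most 2.37 normalised counts (2.55%, SE). PPDK2 rests on 3048 to 9090 reads, with a counting error of at most 3.34 normalised counts. For PPDKB the counting error is at most 53.8 normalised counts, or 0.112%. Reads are not independent molecules after PCR, so these limits cover counting error only, and the spread between the samples of a group stays unknown.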

How the data were processed

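Total RNA of 30 caryopsis samples was sequenced, and samples were grouped by title. The submitters' processing notes name HISAT2 2.0.5, CASAVA 1.7 and DESeq2. Genome build, annotation, read counter and strand setting: not given in the sources used here. Per the file headers, the 8 deposited tables hold a baseMean, here a signal deposited by the authors: the mean normalised count over all libraries. The tables were identical byte for byte. No column of per-sample values was set aside.

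The 8 genes, the 7 lists (55 loci) and the tests were chosen with earlier results of these data known. Planned tests between groups, the levels per transcript length, protein identities and promoter motifs were not run: they need values per sample, lengths or sequences, which were not used here. Loci were compared with the RefSeq table of assembly ASM3414082v1 (39387 genes, 0 with a LOC_Os identifier) by symbol, chromosome and relative place (within 0.1): 11 of the 55 loci were supported, 43 had no usable symbol, and 1 was placed on another chromosome. All 8 genes and the supported loci were to be named; the unsupported loci are given without identifiers. GBSSI and OLE18 were added after the values were seen. Library steps were taken as the low values that recur most often (equal to 13 decimals, 49 times or more, the next 21 times). The procedure was tested on simulated Poisson counts of 30 libraries, with size factors set near the range found here. It gave back the 30 planted steps from 20000 genes, and other settings were not tried. The greatest counting error is the square root of the value times the largest step. Values were computed with pandas 2.3.3 and numpy 2.4.6 in Python 3.11.15 and drawn with matplotlib 3.10.9.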

Additional observations from a re-analysis of the deposited data

How the results depend on the processing

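With the mark for a high level at 5000 normalised counts in place of 1000, 3 of the 8 genes reached it in place of 6, and 3 of the 55 listed loci in place of 16, beside 0.604% of all genes. With the mark at 100, 7 of the 8 genes and 37 of the 55 loci did, beside 21.4% of all genes. The mark of 1000 was reached by 3.78% of all genes. Among those supported by the reference, 4 of 6 genes and 5 of 11 listed loci reached it. Of the other alternatives tried for single lists, the median, shares and the library steps, 18 moved the value beyond a set tolerance. The other 15 stayed within it, which does not mean that the value was unchanged. For example, all 7 loci of the fermentation list were above 0 but 5 had at least 10 normalised counts, which was within the tolerance. Some outcomes were fixed in advance, so the tally does not measure robustness. No listed pyruvate kinase or phosphofructokinase locus was supported, so their counts over supported loci had to be 0. A stricter mark can only lower a count and a looser one can only raise it. The share of AlaAT1 in its family was 97.4% without the locus beside it, an alternative chosen after seeing the data. The median of the genes was 2008 normalised counts over the 6 supported ones. All 6 stayed supported with a tolerance of 0.05 on the relative place, which already followed from their greatest difference of 0.0322. Alternatives of normalisation, filter, length, alignment, promoter window and strand, and leaving out replicates, were not run, since they need values per sample, lengths or sequences. No paired analysis was possible because each gene has a single value for all samples. A pooled mean hides the spread between samples, and a change in 1 group of 3 is diluted over 30 libraries.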

Other observations

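Genes known to sense or signal low oxygen were also listed. The list held 9 loci, all above 0, as were 40831 of the 55801 genes of the profile. Their median was 116 normalised counts, beside 1.23 over all genes. Of the 9 loci, 1 reached 1000, a level that 3.78% of all genes reached. The reference places the listed symbol of that locus on another chromosome. SnRK1A (LOC_Os05g45420), an energy-sensing kinase that acts in starved and submerged rice seedlings, had 318 normalised counts. CIPK15 (LOC_Os11g02240), a kinase that links low oxygen to SnRK1A during germination under water, had 66.0. Of the haemoglobins, which bind oxygen tightly and take part in nitric oxide turnover, NSHB2 (LOC_Os03g12510) had 894 normalised counts and NSHB1 (LOC_Os03g13140) had 3.92. NSHB2 drew 228 times the reads of NSHB1. The spread between samples of these genes is not known, and their difference was not tested.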
